A study of Mus musculus with 610 samples.

Results

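The cells described here are Rag1-/- thymocytes in which Zbtb16, the gene of the transcription factor PLZF, was detected. They were chosen by the Zbtb16 reading itself: a cell of the Rag1-/- cKit- sort belonged when its Zbtb16 threshold cycle (Ct) was below 24, the ceiling at which a reaction counts as not detected. There were 139 such cells among 223 Rag1-/- cKit- cells, out of 610 cells in the series, and the 84 Rag1-/- cells without Zbtb16 from the same captures served as the reference. The study read 48 quantitative PCR assays in single mouse thymocytes captured on a Fluidigm C1, to follow the precursors of interleukin 17 producing gamma delta T cells (Tgd17 cells). The Rag1-/- cells came from mice with the targeted Rag1 allele tm1Mom on a B6 background, at postnatal days 0 to 2, and had been sorted as live, CD44+, CD25-, cKit- and negative for the delta T cell receptor and lineage markers, with no CD24 gate. The other sorts came from mice of postnatal days 7 to 10. DN1d cells (CD44+, CD25-, CD24+, cKit-) were taken from C57BL/6J (B6) mice and, in 1 run, from mice with the targeted Tcrd allele tm1Mom, and DN2 cells (CD44+, CD25+, cKit+) from C57BL/6J mice. Mice that lack Rag1 cannot rearrange antigen receptor genes, so they have no mature T or B cells. The labels name no animals, so that the spread between runs may be technical in part.

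PLZF is a zinc finger factor that marks innate-like lymphocytes, among them natural killer T cells, a share of gamma delta T cells and the precursors of innate lymphoid cells. Innate lymphoid cells lack rearranged receptors and fall into a type 1 group, driven by T-bet (Tbx21), a type 2 group that depends on Gata3, and a type 3 group that makes interleukin 17 and interleukin 22. Their precursors depend on Id2, Nfil3, Tox and the interleukin 7 receptor (Il7r). Several factors, such as Gata3, Tcf7, Bcl11b and Runx1, are shared between innate lymphoid and T cell development, and the fetal and newborn thymus holds both kinds of cell.

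Of the 4 other innate lymphoid marker genes of the panel, Id2 was detected in 139 of 139 Zbtb16-detected cells, Il7r in 134, Tox in 123 and Nfil3 in 71. These markers were frequent in the Zbtb16-undetected cells too, where the mean shares over the 3 runs were 98.9% for Id2, 87.1% for Il7r, 73.5% for Tox and 57.02% for Nfil3. The marker list thus describes the Rag1-/- sort as a whole. Markers of other lineages were near 0: among the 139 cells, Csf1r and Csf2rb2 of the myeloid and dendritic list, Cpa3 of the progenitor and mast list, and Spi1 of both were detected in 0 cells (upper limit 2.16%), and Gp49a in 1 cell. Myb, the third gene of the progenitor and mast list, was detected in 9 cells. The receptor junctions Vg2-Jg1, Vd4-Jd1 and Vd5-Jd1 and the recombinase gene Rag2 were detected in 0 of the 223 Rag1-/- cells (upper limit 1.35%). These limits cover counting error only. Vd5-Jd1 was detected in 0 cells of every sort, and Csf1r only in 2 Zbtb16-undetected DN2 cells, so their absence says little about the Rag1-/- cells.

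Zbtb16 was detected in 59 of 89 cells of run 1 (66.3%), 24 of 52 of run 2 (46.2%) and 56 of 82 of run 3 (68.3%), a mean of 60.2% ± 12.2 (SD, n = 3 runs). Run 2 was the lowest. Level below is 24 minus Ct, in PCR cycles, with undetected reactions at 0. Because assays differ in amplification, levels of different genes are not compared. The Zbtb16 level in the cells with it ran from 2.14 through a median of 7.28 to 10.7, and the run medians were 7.28, 6.44 and 7.58. The lowest 3 cells stood at 2.14, 2.61 and 3.21, and every cell just outside the rule was at the ceiling, since no Rag1-/- cell had a Ct between 22 and 24. Of the 139 cells, 110 had a Ct below 18 and 29 lay between 18 and 24. These values chose the cells and are a description only.

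How often each other gene was detected was compared between Zbtb16-detected and Zbtb16-undetected cells within each run, as a natural log odds ratio, which is above 0 where a gene was found more often with Zbtb16. Runx1, Bcl11b, both homing receptor genes and Il17re, Blk and Maf of the Tgd17 programme were among the genes found more often with Zbtb16, and Gzma, Cdh1, Syk and Bhlhe40 less often. Of 30 tested assays, 13 (43.3%) were higher and 4 (13.3%) were lower with Zbtb16 (limma over 3 runs, Benjamini-Hochberg). Of the 13, 1 is not reported here, and the other 12 are Il17re, Blk, Runx1, Ccr9, Sox13, Bcl11b, Maf, Cdk6, Gpr183, Il7r, Cd163l1 and Tox. The 4 lower genes were Cdh1, Gzma, Syk and Bhlhe40. Each named gene moved the same way in 3 of 3 runs. The median over all tested assays was 0.39. The standard error, 0.39 for every gene, was in effect pooled over genes, and with no such moderation 0 assays passed, with 9 of 30 at an unadjusted p below 0.05. Without run 1 the counts were 8 higher and 3 lower, and the calls of Cdk6, Gpr183, Il7r, Cd163l1, Tox and Bhlhe40 ended. Without run 3 those of Cdk6, Cd163l1 and Tox ended.

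**Figure D1:**
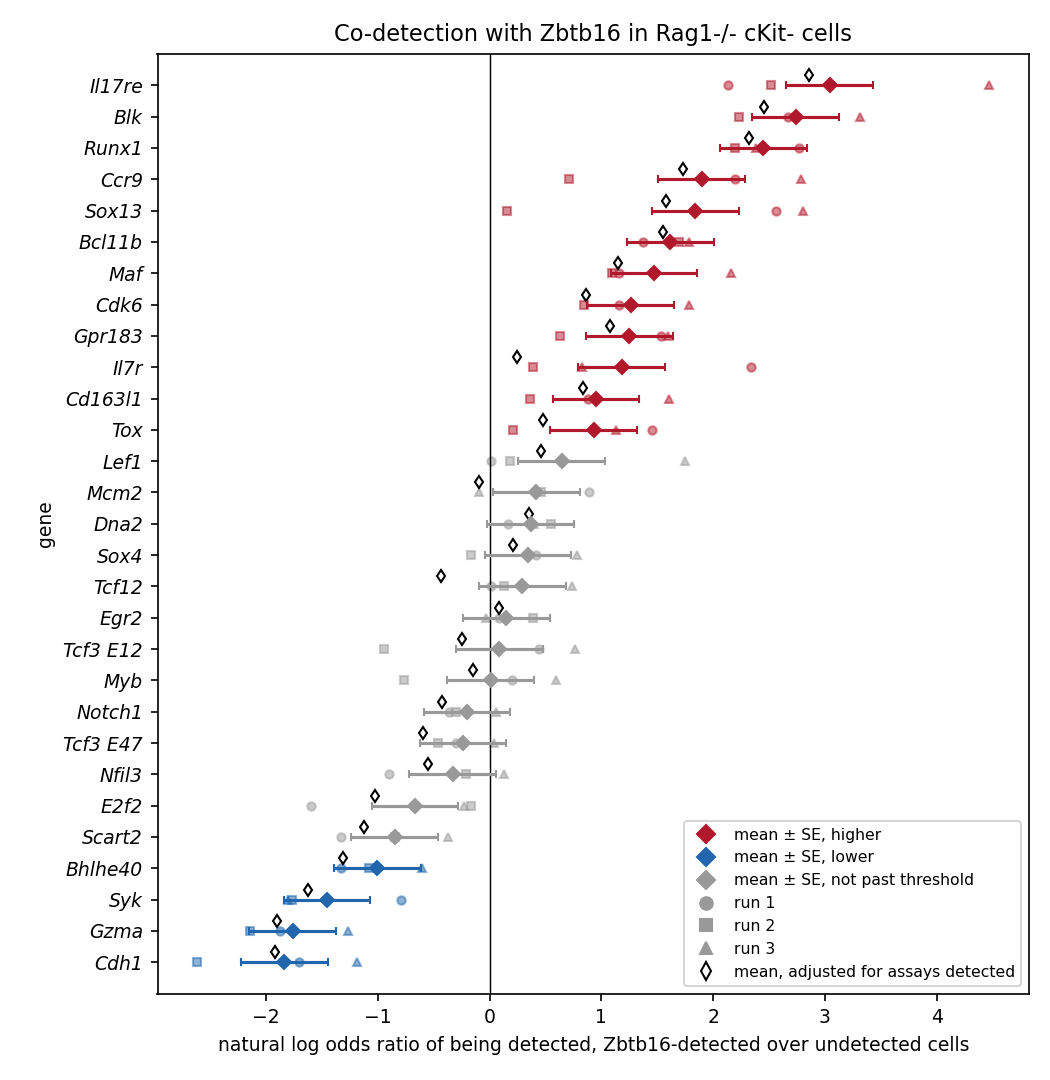
Natural log odds ratio of detection with Zbtb16 in Rag1-/- cKit- cells (x axis) for each tested gene (y axis; 1 further tested assay is not drawn). Filled diamonds are means over 3 runs with the limma standard error, small marks are the runs, and open diamonds are means adjusted for the number of other assays detected. Il17re stands highest, at 3.04, and Cdh1 lowest, at -1.84.

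Cells with Zbtb16 usually had Runx1 and Bcl11b, factors that T cell precursors need to commit to the lineage and that several innate lymphoid cells also use. Runx1 was detected in 81.4%, 91.7% and 91.1% of the Zbtb16-detected cells of runs 1 to 3 and in 20%, 50% and 46.2% of the Zbtb16-undetected cells. The shares did not overlap in any run. Its mean log odds ratio was 2.45 ± 0.39 (SE; limma, adjusted p = 2.76e-07), and its mean level was 8.97 ± 0.54 with Zbtb16 and 3.38 ± 1.15 without (SD, n = 3). Bcl11b was detected in 93.2%, 95.8% and 91.1% against 76.7%, 75% and 61.5% of cells, a log odds ratio of 1.62 (adjusted p = 0.000333). Of the 5 T lineage commitment genes of the panel, 4 could be tested and these 2 were higher, a share close to the 43.3% of all tested assays. Lef1, an HMG box factor, had a log odds ratio of 0.65 (adjusted p = 0.152), which came mostly from run 3, and Notch1, the receptor that starts the T cell programme, had -0.20 (adjusted p = 0.670). The list's median was 1.13.

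The Tgd17 programme is the longest list of the panel. Of its 10 assays, 9 could be tested: 6 were higher, of which 5 are named here, and 0 lower, beside 13 higher of all 30 tested (43.3%), with a list median of 1.47 against 0.39 over all tested. Of the named calls, those of Sox13 and Cd163l1 ended when adjusted for the number of other assays detected. Il17re, a subunit of the receptor for interleukin 17C, was detected in 42.4%, 54.2% and 62.5% of Zbtb16-detected cells and in 6.67%, 7.14% and 0% of the others. Its log odds ratio was 3.04 (adjusted p = 1.4e-09). Blk, a Src family kinase of B cells and interleukin 17 producing gamma delta T cells, was detected in 11, 3 and 19 Zbtb16-detected cells of runs 1 to 3. In Zbtb16-undetected cells Blk was found in 0 of 84, where the upper limit on the share is 3.57%. Its log odds ratio of 2.74 (adjusted p = 2e-08) depends on the 0.5 added to each count and is no bound. All 33 Blk cells of the Rag1-/- sort therefore had Zbtb16, as did 73 of 77 Il17re cells. The lower limit for testing, 5% of cells, was applied to all Rag1-/- cells together. Il17re, Blk and Sox13 met it only through the Zbtb16-detected cells. In Zbtb16-undetected cells they were found in 4.76%, 0% and 1.19%, so their log odds ratios and p-values rest on few or no cells there. The count of higher assays in the list and its median include these genes, for which the filter favoured a higher result. No excess of the list over all tested assays is read from either.

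Sox13, the HMG box factor that marks the early Tgd17 lineage, was rare: it was detected in 10, 1 and 13 Zbtb16-detected cells and in 0, 1 and 0 Zbtb16-undetected cells. Its log odds ratio was 1.84 (adjusted p = 5.95e-05), and run 2 alone stood at 0.16. Maf, a factor needed for interleukin 17 in gamma delta T cells, was detected in 83.1%, 83.3% and 92.9% against 60%, 60.7% and 57.7% of cells, with a log odds ratio of 1.47 (adjusted p = 0.00105). Cd163l1, a scavenger receptor gene also called Scart1, was detected in 84.8% ± 2.36 against 66.3% ± 16.1, with a log odds ratio of 0.95 (adjusted p = 0.0322). In run 2 its shares were 87.5% and 82.1%, and without run 3 its log odds ratio was 0.62 (adjusted p = 0.257). Its relative Scart2 was found in slightly fewer Zbtb16-detected cells, 90.4% ± 6.18 against 96.3% ± 3.57, which did not pass the threshold (log odds ratio -0.85, adjusted p = 0.0540). Sox4 and Tcf12 did not pass either, at 0.34 and 0.29, and Etv5 was detected in 5 of 139 cells and was too rare to test. A Zbtb16-detected cell held a mean of 5.81, 5.50 and 6.36 of the 10 Tgd17 assays in runs 1 to 3, and a Zbtb16-undetected cell 4.03, 4.14 and 3.65.

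**Figure D2:**
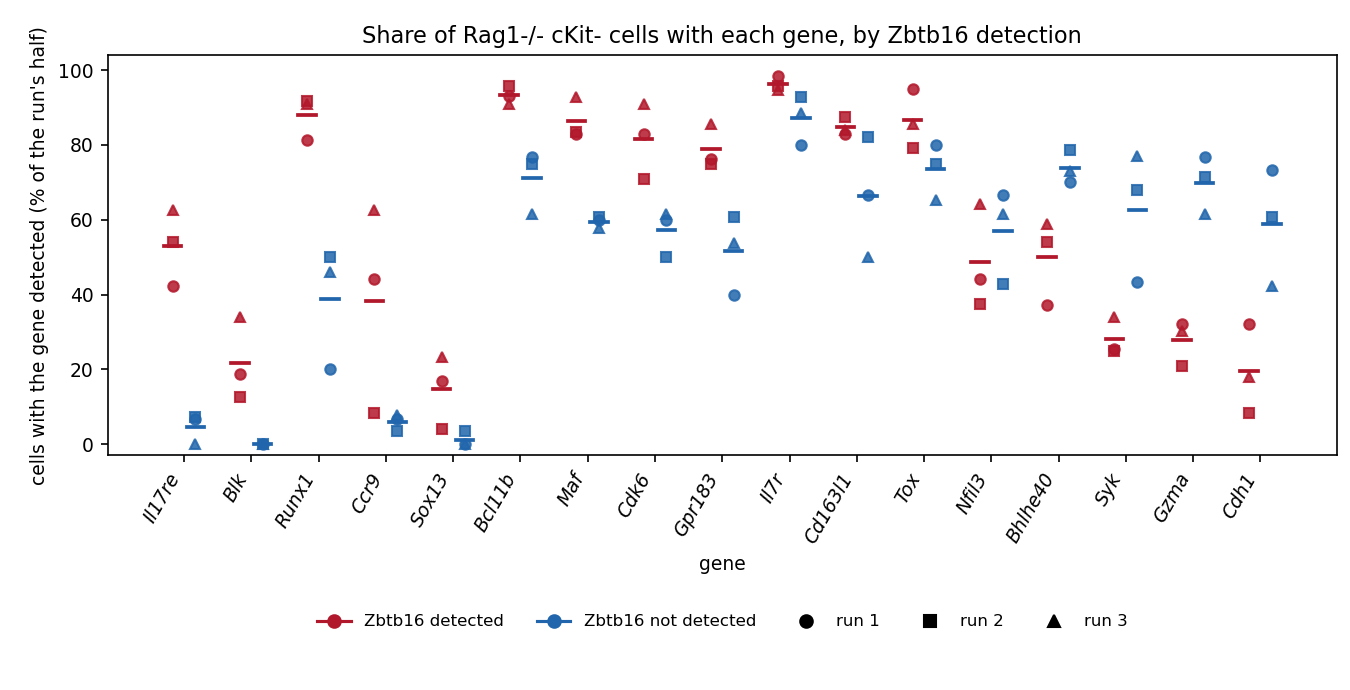
Share of Rag1-/- cKit- cells with each gene detected (y axis, percent) among Zbtb16-detected cells (red) and Zbtb16-undetected cells (blue), for the named genes past the threshold and Nfil3 (x axis). Marks are the 3 runs and bars their means. Blk stands at 0 in the Zbtb16-undetected cells of every run, and Gzma, Syk, Cdh1 and Bhlhe40 are lower in Zbtb16-detected cells.

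Both homing receptor genes were higher, beside 43.3% of all 30 tested assays, a share that also stands beside the lists below. Ccr9, the receptor for the thymic and gut chemokine CCL25, was detected in 44.1%, 8.33% and 62.5% of Zbtb16-detected cells and in 6.67%, 3.57% and 7.69% of the others, with a log odds ratio of 1.90 (adjusted p = 4.72e-05). Run 2 again had few such cells. Gpr183, an oxysterol receptor that guides lymphoid cells in tissues, was detected in 76.3%, 75% and 85.7% against 40%, 60.7% and 53.8%, with a log odds ratio of 1.25 (adjusted p = 0.00471). Among the 4 cell cycle and replication genes, Cdk6, a kinase that drives entry into the cycle, was higher, in 81.7% ± 10.2 against 57.2% ± 6.27 of cells (log odds ratio 1.26, adjusted p = 0.00465). Mcm2, Dna2 and E2f2 did not pass, at 0.42, 0.37 and -0.67. None of the 3 tested assays among the E proteins and their inhibitors passed (Tcf12, Tcf3 E12 and Tcf3 E47).

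Among the innate lymphoid markers, 2 of 3 tested genes were higher, beside 43.3% of all tested assays, and neither call held under every alternative. Il7r was detected in 98.3%, 95.8% and 94.6% of Zbtb16-detected cells against 80%, 92.9% and 88.5%, a log odds ratio of 1.18 (adjusted p = 0.00731), with most of the difference in run 1. Adjusted for the number of other assays detected in the cell, its log odds ratio was 0.25 (adjusted p = 0.763). Tox, an HMG box factor of innate lymphoid and T cell precursors, was detected in 94.9%, 79.2% and 85.7% against 80%, 75% and 65.4%, and its groups overlapped (log odds ratio 0.93, adjusted p = 0.0342). Its call was lost in 10 of 13 alternatives, where the adjusted p reached 0.396. Nfil3, an early factor of innate lymphoid precursors, was detected in 44.1%, 37.5% and 64.3% against 66.7%, 42.9% and 61.5% and did not pass (-0.33, adjusted p = 0.498). Id2, which blocks E proteins, was found in nearly every cell and could not be tested by detection. Its level was 11.36 ± 0.86 with Zbtb16 and 11.42 ± 0.57 without (difference -0.06 ± 0.55, SE; limma, adjusted p = 0.921). The genes shared by innate lymphoid and early T cells were as frequent: Tcf7 in 137, Gata3 in 138 and Ets1 in 139 of the 139 cells, and none of these 3 passed by level.

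Gzma was found in fewer Zbtb16-detected cells, and the level of Tbx21 was lower in them. Gzma, which encodes the protease granzyme A of killer cells, was detected in 32.2%, 20.8% and 30.4% of Zbtb16-detected cells and in 76.7%, 71.4% and 61.5% of Zbtb16-undetected cells. The shares were far apart in every run, with a log odds ratio of -1.76 (adjusted p = 0.000104). Its mean level over all cells was 3.68 ± 0.90 with Zbtb16 and 9.28 ± 0.89 without. Tbx21, which encodes T-bet, was detected in 130 of 139 Zbtb16-detected cells and in 98.7% ± 2.22 of the others, so that only its level could be tested. That level was 6.55, 5.65 and 5.96 with Zbtb16 in runs 1 to 3 and 8.86, 8.88 and 9.24 without. The difference of -2.94 ± 0.55 cycles (SE; limma, adjusted p = 5.08e-05) was larger than the spread between runs. Tbx21 and Gzma are the whole type 1 and cytotoxic list of the panel.

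Cdh1, the adhesion molecule E-cadherin, was detected in 32.2%, 8.33% and 17.9% of Zbtb16-detected cells and in 73.3%, 60.7% and 42.3% of the others (log odds ratio -1.84, adjusted p = 5.95e-05). Syk, a kinase that passes on signals from antigen and activating receptors, was detected in 25.4%, 25.0% and 33.9% against 43.3%, 67.9% and 76.9% (-1.45, adjusted p = 0.0011). Of the other receptor signalling genes, Blk was higher (above) and Egr2, which antigen receptor signals induce, did not pass (0.15). Bhlhe40, a helix-loop-helix repressor of activated lymphocytes, was detected in 37.3%, 54.2% and 58.9% against 70%, 78.6% and 73.1% (-1.003, adjusted p = 0.0244). The Bhlhe40 call ended without run 1 (adjusted p = 0.245) or run 2 (0.0597).

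On the scale of mean level, 11 of 36 tested assays (30.6%) were higher and 5 (13.9%) lower with Zbtb16, and 15 of these 16 were also called by detection. Without run 1 the counts were 6 higher and 3 lower, and with the median over cells in place of the mean 2 and 2. The largest differences were Runx1 at 5.59 ± 0.55 cycles (SE; limma, adjusted p = 1.11e-09) and Gzma at -5.60 ± 0.59 (adjusted p = 3.16e-09). Because undetected reactions count as 0, this measure joins how often a gene was found to how high it was.

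Restricted to cells in which the gene was detected, 3 of 28 tested assays (10.7%) differed. Tbx21 was lower with Zbtb16, at 7.03, 6.16 and 6.29 cycles in runs 1 to 3 against 8.86, 8.88 and 9.61 (difference -2.62; limma, adjusted p = 0.00135). Maf was higher, at 9.63, 8.25 and 7.92 against 7.88, 6.16 and 5.60 (2.05, adjusted p = 0.00135), and Bcl11b at 6.96, 6.07 and 6.64 against 5.22, 4.86 and 4.78 (1.60, adjusted p = 0.00541). For Tbx21 and Bcl11b the groups of run values did not overlap, while for Maf run 3 with Zbtb16 (7.92) was close to run 1 without (7.88). Runx1 differed by 1.17 and did not pass (adjusted p = 0.110), and in run 1 its level was 10.35 with and 10.24 without Zbtb16. Gzma stood at 13.18 ± 0.52 and 13.30 ± 0.55, a difference that did not pass. Without run 2, 0 of 29 assays passed by this measure, with 5 at an unadjusted p below 0.05 in limma, and adjusted p-values of 0.0772 for Tbx21 and 0.0564 for both Maf and Bcl11b. Without run 1 the Bcl11b call also ended (adjusted p = 0.129). When the runs were not kept as blocks, the difference of Maf did not pass (adjusted p = 0.147).

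**Figure D3:**
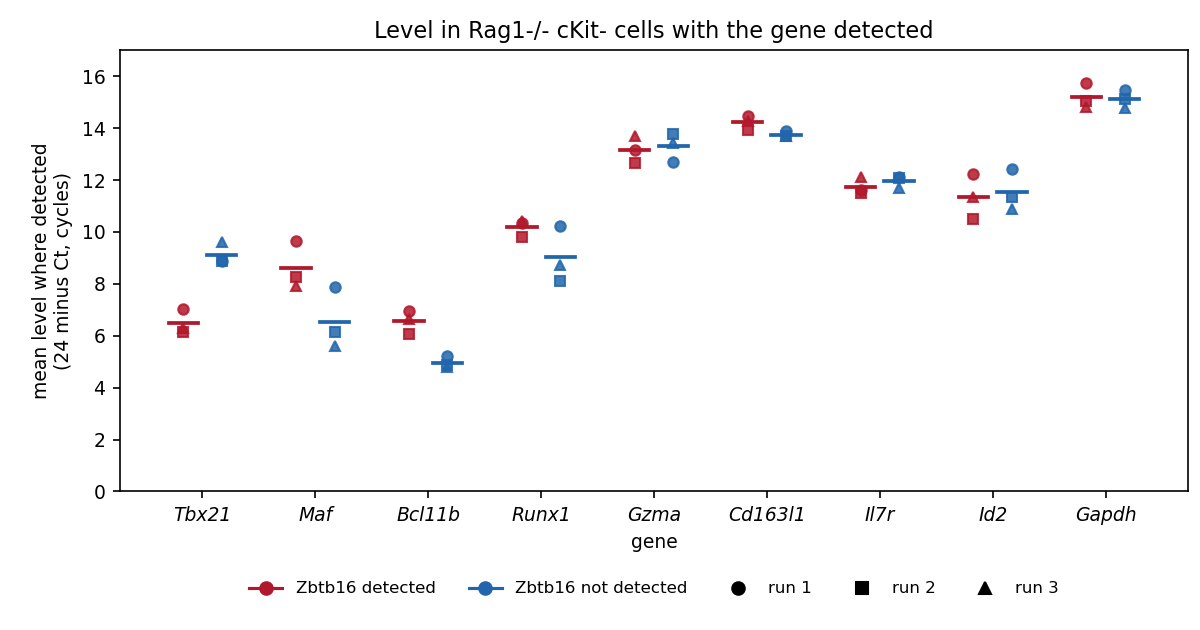
Mean level in cells with the gene detected (y axis, 24 minus Ct, in cycles) in Zbtb16-detected (red) and Zbtb16-undetected (blue) Rag1-/- cKit- cells, for 9 genes (x axis). Marks are the 3 runs and bars their means. Tbx21 was lower with Zbtb16, Maf and Bcl11b higher, and Gapdh lay at 15.2 and 15.1.

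Zbtb16-detected cells also had more assays detected. Leaving out Zbtb16, a mean of 23.8, 21.3 and 24.9 assays was detected in the Zbtb16-detected cells of runs 1 to 3 and 21.3, 20.9 and 20.7 in the others. The difference of 2.37 ± 1.94 assays (SD, n = 3) was positive in all 3 runs, and the exact sign-flip test gave p = 0.25, the smallest that 3 runs allow. The level of Gapdh, the reference gene, differed by 0.08 ± 0.18 cycles (exact p = 0.75). With the number of other assays in the model, 9 assays were higher and 5 lower by detection, and 13 of the 17 calls were shared. That number includes the other called genes, so this fit cannot separate cDNA yield from their differences. Il7r, Tox, Sox13 (1.58, adjusted p = 0.0890) and Cd163l1 (0.84, adjusted p = 0.0758) lost their calls, and Scart2 was called lower (-1.13, adjusted p = 0.0442). Runx1, Il17re, Blk, Ccr9 and Bcl11b stayed past the threshold at 2.32, 2.86, 2.46, 1.73 and 1.55, and Gzma, Cdh1 and Syk at -1.90, -1.92 and -1.63.

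The 139 cells were not uniform: Il17re, Blk, Ccr9 and Sox13 tended to be found in the same cells, and Gzma, Syk and Cdh1 in other cells. The pairs below are described with no test and were picked after their values were seen. All 33 cells with Blk also had Il17re, against 37.7% of the cells without Blk. Ccr9 was found in 22 of the 24 Sox13 cells and in 35.7% of the others. Gzma and Syk were found together in 31 cells, so that 77.5% of the cells with Syk and 10.1% of those without it had Gzma. Across these sets the genes were found apart: Il17re was detected in 14.6% of the cells with Gzma and 68.4% of those without, and in 12.5% of the cells with Syk and 68.7% of those without. Runx1 was detected in 51.6% of the cells with Cdh1 and in 97.2% of those without. The mean log odds ratios were 3.32 for Il17re with Blk, 2.75 for Ccr9 with Sox13 and 3.68 for Gzma with Syk. They were -2.59 for Il17re with Gzma, -2.91 for Il17re with Syk and -2.80 for Runx1 with Cdh1. Each of these pairs had 1 sign in the 3 runs. Runx1 with Syk and Runx1 with Gzma had means of -0.52 and -0.66 and were positive in run 2. That run adds little for pairs with rare genes. Its 24 Zbtb16-detected cells held 1 cell with Sox13, 2 with Ccr9, 3 with Blk and 2 with Cdh1. The run 2 value for Ccr9 with Sox13, 3.81, rests on 1 Sox13 cell and on the amount added to each count.

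**Figure D4:**
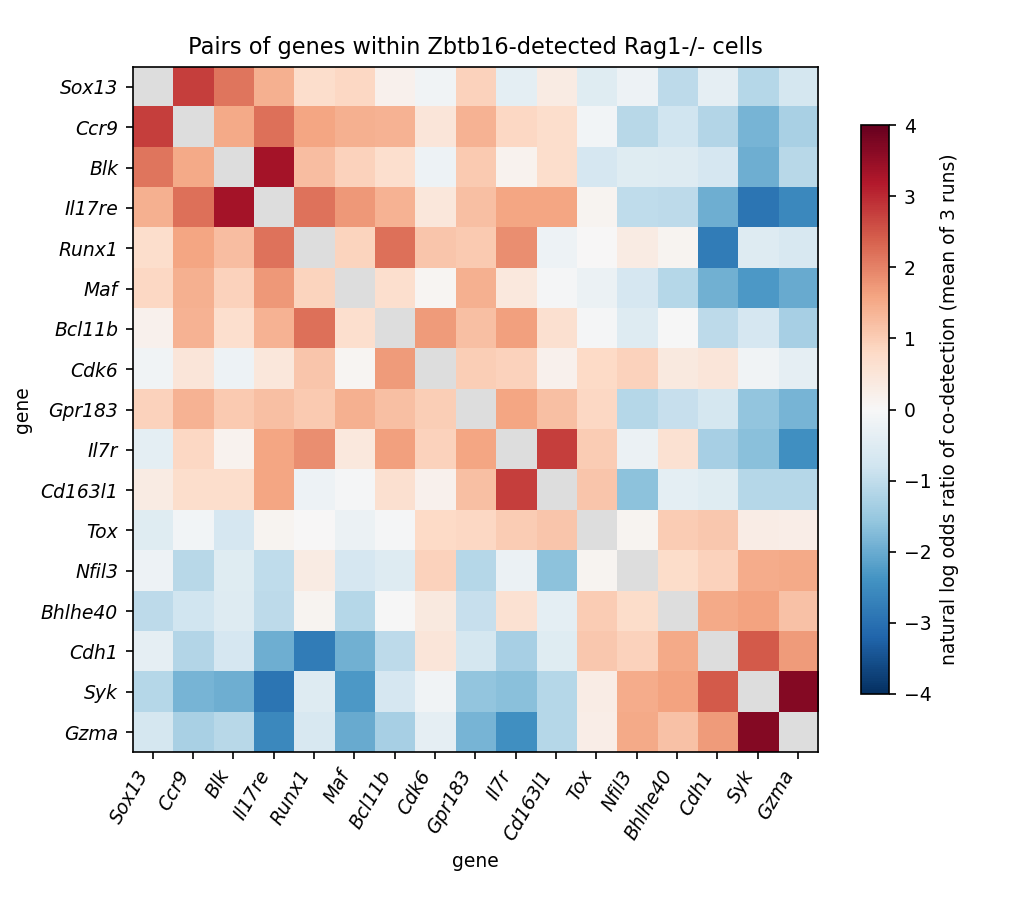
Co-detection of pairs of genes (both axes) within the 139 Zbtb16-detected Rag1-/- cells. Colour gives the natural log odds ratio, mean of 3 runs, red where the genes were found together and blue where they were found apart. Red fields link Sox13, Ccr9, Blk and Il17re at the upper left and Cdh1, Syk and Gzma at the lower right, and the fields between these sets are blue.

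Counted by cell, 86 of the 139 Zbtb16-detected cells (61.9%) had at least 1 of Blk, Il17re, Ccr9 and Sox13, and 8 of the 84 Zbtb16-undetected cells (9.52%) did. In runs 1 to 3 the shares were 57.6%, 54.2% and 69.6% with Zbtb16. At least 1 of Gzma, Cdh1 and Syk was found in 58 Zbtb16-detected cells (41.7%) and in 74 Zbtb16-undetected cells (88.1%). Of the 139, 72 cells had a gene of the first set and none of the second, 44 the reverse, and 9 had none of either. These sets were made from the results above and support nothing beyond them.

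The level of Zbtb16 itself had weak correlations with other genes. Within the 139 cells its mean Spearman correlation over the 3 runs was highest with Bcl11b (0.41), followed by Ccr9 (0.27), Maf (0.23), Il7r (0.21) and Runx1 (0.16), and lowest with Gzma (-0.25), Tbx21 (-0.24) and Syk (-0.23). For several genes called by detection it was near 0, with 0.08 for Sox13, 0.01 for Blk, -0.01 for Tox and -0.03 for Cdk6, and Runx1 was at -0.08 in run 2. In runs 1, 2 and 3 the value for Bcl11b was 0.45, 0.30 and 0.46. The correlation with the Gapdh level was 0.01. Over all 223 Rag1-/- cells, with undetected reactions at 0, the 5 most alike genes were Runx1 (0.57), Bcl11b (0.52), Maf (0.50), Il17re (0.48) and Ccr9 (0.39). Levels in a cell share that cell's cDNA yield, and these values are descriptions.

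Zbtb16 was also common in DN2 cells, in 42 of 78 (53.8%), at a mean level of 6.05 against 7.24, 6.24 and 7.28 in the Rag1-/- runs. In the single DN2 run the log odds ratio with Zbtb16 was 0.06 for Il17re and -0.17 for Blk, against Rag1-/- means of 3.04 and 2.74. Those means depend on the 0.5 added to each count: of the 84 Zbtb16-undetected Rag1-/- cells, 4 had Il17re and 0 had Blk. In Rag1-/- cells both genes met the lower limit for testing only through the Zbtb16-detected cells. The differences of -2.98 ± 0.87 and -2.91 ± 0.87 (SE; limma over 3 Rag1-/- runs and 1 DN2 run, adjusted p = 0.0165 for both) were the 2 of 17 tested assays past the threshold (11.8%). Both calls ended without Rag1-/- run 1 (adjusted p = 0.0579 for Il17re and 0.0824 for Blk) or run 3 (0.111 for both), and with a Ct limit of 22 for the other genes. The spread between DN2 runs was not measured: the DN2 run was assumed to vary like the Rag1-/- runs, and run, sort, age and genotype cannot be told apart. The standard error, 0.87 for every gene, was in effect pooled over genes. With 1 added to each count in place of 0.5, the differences were -2.66 for Il17re and -2.29 for Blk.

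**Figure D5:**
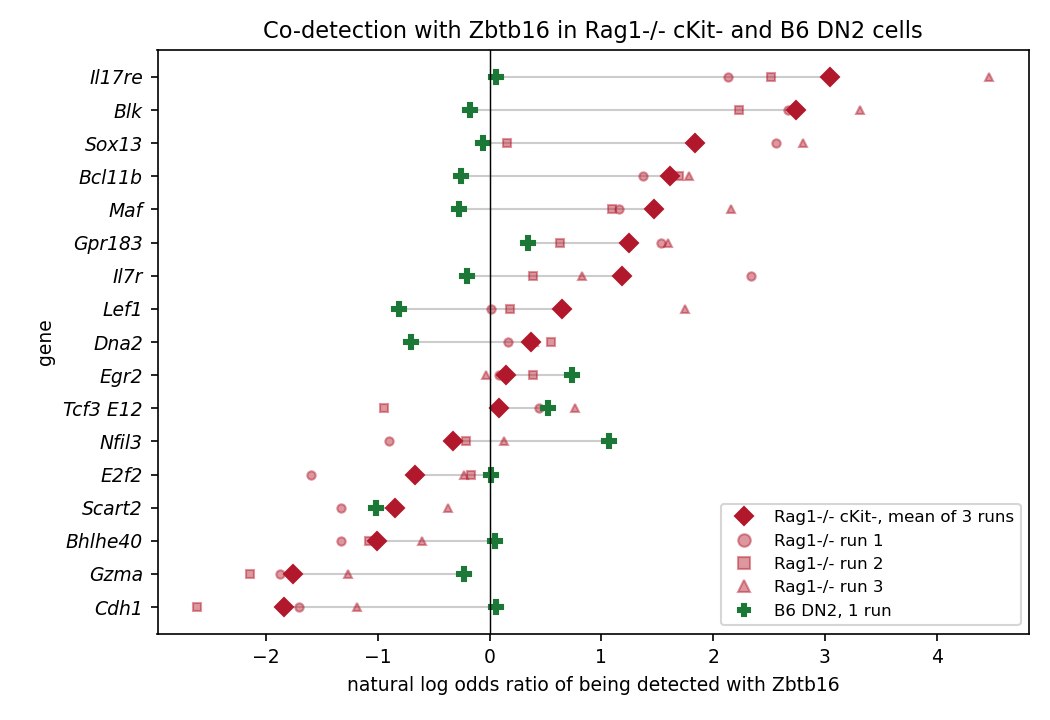
Natural log odds ratio of detection with Zbtb16 (x axis) for 17 genes (y axis) in Rag1-/- cKit- cells (red; diamonds are means of 3 runs, small marks the runs) and in the single B6 DN2 run (green). DN2 values lie near 0 for Il17re and Blk, while their Rag1-/- means lie away from it. Those means rest on few or no Zbtb16-undetected cells with the gene.

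The Zbtb16-detected cells of the DN2 run and of the Rag1-/- runs were also set side by side for what they held. Of 40 assays, 24 (60%) passed the threshold for their share, with 16 higher and 8 lower in the DN2 run, again with a spread taken from the Rag1-/- runs, since the spread between DN2 runs was not measured. Cpa3, a protease of mast cells and early progenitors, was detected in 42 of 42 Zbtb16-detected DN2 cells and 0 of 139 Rag1-/- cells. Myb, Syk, Notch1 and Tcf3 E47 were detected in all 42, and the Hedgehog receptor gene Smo in 41, against 9, 40, 78, 82 and 7 of 139. Spi1, Rag2 and Sox13 were detected in 35, 22 and 37 of the 42 DN2 cells and in 0, 0 and 24 of the 139. Assays detected in at least 1 and not all Zbtb16-detected cells of these sorts were tested. Cpa3, Spi1 and Rag2 thus entered only through the DN2 cells, where they are frequent. Their Rag1-/- logits come only from the 0.5 added to each count, and the counts of passing assays above include them. On the lower side, Cd163l1 was detected in 1 of 42 against 117 of 139, with a logit difference of -4.98 in limma. The standard error, 0.68 for every gene, was in effect pooled over genes, and no DN2 fit without that moderation was run. Ccr9 was found in 0 of 42 DN2 cells (upper end of the two-sided 95% Clopper-Pearson interval 8.41%) against 63 of 139, and Id2 in 32 of 42 against 139 of 139. The 36 Zbtb16-undetected DN2 cells were much alike: Cpa3, Myb, Syk, Notch1, Tcf3 E47 and Smo were each detected in 36 of them. Spi1, Rag2 and Sox13 were detected in 28, 23 and 32, Cd163l1 in 0, Ccr9 in 1 and Id2 in 29. These DN2 shares are thus not particular to the Zbtb16-detected DN2 cells. Without Rag1-/- run 3, 4 assays were lower.

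In B6 DN1d cells Zbtb16 was rare, in 6 of 72, 9 of 70 and 3 of 81 cells. These 18 cells are too few to test. Id2 was detected in 18 of them, Il7r in 17, Maf in 16, Runx1 in 15, Ccr9 in 9, Sox13 and Blk in 4 each, and Cd163l1, Nfil3, Il17re and Gzma in 3 each. In the Tcrd-/- run Zbtb16 was found in 8 of 86 cells, all with Id2, Maf, Runx1 and Sox13. These genes were also in 67.9%, 94.9%, 98.7% and 96.2% of the 78 Zbtb16-undetected cells of that run.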

How the data were processed

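The deposited table holds 1 Ct value per assay and cell, not normalised, over 29280 reactions. Per the labels' protocols, the authors lysed and reverse transcribed single cells on the C1, ran 18 cycles of preamplification and 30 of quantitative PCR. The deposited Ct values reach a ceiling of 24, where 50.5% of reactions stood. How Ct and ceiling were set, and which capture sites held more than 1 cell, was not given in the sources used here, and no doublet caller was run.

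Runs were read from the sample titles, and Zbtb16-detected and Zbtb16-undetected cells of a run are paired by that shared capture. Per run and assay, 3 values were computed: the log odds ratio (0.5 added to each count; assays in 5% to 95% of Rag1-/- cells), the difference in mean level (assays in at least 5%), and that in cells with the gene detected (at least 3 cells on each side in each run). Each was tested against 0 with limma 3.58.1 in R 4.3.3, at a Benjamini-Hochberg threshold of 0.05. The DN2 comparisons used the log odds ratio, or the empirical logit of the share, per run. The test was also run on simulated cells. Those were drawn with no difference between runs, so they cannot check the test against run-to-run spread. Intervals are exact (Clopper-Pearson), two-sided, at 95%. The upper limit for a count of 0 allows 3 cells, except for Ccr9 in DN2 cells, where the end of that interval is given.

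The text names every assay past the threshold within Rag1-/- cells, the 10 largest in the DN2 comparisons, the 5 most like Zbtb16, and a fixed list around the innate lymphoid and Tgd17 genes. Further DN2 assays and the gene pairs were chosen after their values were seen. The members and lists were chosen with earlier results of these data known. A further assay is counted in the totals and not reported here. Alternatives were other Ct limits, filters, added counts, no blocks, no moderation, adjustment for assays detected and leaving out runs. After the data were seen, a Zbtb16 limit of 18 and leaving out the cells with the most or fewest assays (1 in 10 of each run) were added.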

Additional observations from a re-analysis of the deposited data

Results flagged for a closer look

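The log odds ratio of Il17re with Zbtb16 was lower in the single DN2 run than in Rag1-/- cells, with a difference (DN2 minus Rag1-/-) of -2.98, and so was that of Blk, with -2.91. Each difference was tested in limma as a group term over 3 Rag1-/- runs and 1 DN2 run (adjusted p = 0.0165 for both), with the DN2 spread assumed and not measured. Neither passed without Rag1-/- run 1, without run 3 or at a Ct limit of 22 for the other genes. In the DN2 run 5 of 42 Zbtb16-detected cells had Il17re and 5 of 42 had Blk. Of the 84 Zbtb16-undetected Rag1-/- cells, 4 had Il17re and 0 had Blk, so the Rag1-/- values depend on the 0.5 added to each count. The standard error was in effect pooled over genes. No group holds 4 or more runs, so no run could be checked as an outlier.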

How the results depend on the processing

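Co-detection calls of Bcl11b, Blk, Ccr9, Cdh1, Gzma, Il17re, Maf, Runx1 and Syk held in all 13 alternatives that kept limma's moderation, and level calls of Gzma, Runx1 and Tbx21 in all 12. Leaving out each Rag1-/- run in turn gave 8 to 13 higher and 3 to 5 lower assays by detection, 6 to 11 and 3 to 5 by level, 0 to 2 and 0 to 2 in cells with the gene detected, 0 to 3 lower log odds ratios and 4 to 8 lower and 14 to 17 higher shares in DN2 cells, and 1.42 to 3.35 more assays per cell. With no moderation 0 assays passed in any Rag1-/- measure, with 9, 10 and 5 at an unadjusted p below 0.05. The median over cells gave 2 higher and 2 lower by level, and the median over detected cells 2 lower. A Ct limit of 22 for the other genes left 0 DN2 log odds ratios, with 6 at an unadjusted p below 0.05. With no replicate block, which ignores the pairing by run, 11 higher and 4 lower assays passed by detection, 10 and 4 by level, and 1 higher in detected cells: Cd163l1, Tox, Cdh1 (by level) and Maf (in detected cells) lost calls. With a Zbtb16 Ct limit of 18, 12 were higher and 3 lower by detection, without the cells with the most assays 12 and 5, and without those with the fewest 10 and 4. Signs changed only for differences that had not passed. By level, leaving out each run gave -0.223 to 0.0248 for Ets1, -0.0247 to 0.156 for Gapdh, -0.195 to 0.224 for Gata3 and -0.310 to 0.342 for Id2. Adjusted for assays, Gapdh was -0.0711, Gata3 -0.164 and Tcf7 -0.494. Without the cells with fewest assays, Gata3 was -0.0071, Il7r -0.117 and Tcf7 -0.263. Gata3 was -0.0438 without the cells with most assays, and Tcf7 -0.615 for the median. In detected cells, leaving out each run gave -0.223 to 0.0248 for Ets1, -0.0247 to 0.156 for Gapdh, -0.103 to 0.316 for Gata3, -0.413 to 0.366 for Gzma, -0.517 to 0.134 for Id2, -0.336 to 0.360 for Sox4, -0.531 to 0.117 for Tcf7 and -0.0623 to 0.436 for Tox. Sox4 was -0.104 relative to Gapdh and -0.0506 by the median. The causes were not tested. Zbtb16 at a limit of 22 changed no Rag1-/- member. Rare genes (Sox13, Blk) rest on few cells.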
